A study of Mus musculus with 8 samples.

Results

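The Tspan8neg MHCIIhi subset of medullary thymic epithelial cells (mTECs) was set against the 3 other mTEC subsets of the series by RNA-seq. Its members are 2 libraries of 8, found by the sort named in their titles, and the 6 others are 2 libraries each of Tspan8neg MHCIIlo, Tspan8pos MHCIIhi and Tspan8pos MHCIIlo. All cells came from thymi of young wild-type BL6N6 mice and were sorted as CD45neg, EpCAM-positive and CDR1neg, then split by surface Tspan8 and MHCII. The groups differ by sort gate, with no treatment, deletion or transgene, and the sources do not say how many mice went into a library or whether the libraries of a subset came from separate mice, so the spread between them may be partly technical. The labels call them biological replicates.

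mTECs present peptides of the body's own proteins to developing T cells, so that T cells reacting to them are removed or become regulatory cells. In the mature, MHCII-rich state they carry the autoimmune regulator Aire and costimulatory ligands such as CD80, and they transcribe a large set of tissue-restricted antigen (TRA) genes, which are otherwise used in one or a few peripheral organs. Each such gene is transcribed in a small share of the cells. After the Aire-positive stage some mTECs take on programs of peripheral cell types, among them tuft cells and cornified skin cells.

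The deposited table holds a count for 25466 genes, and 17006 passed a filter on low counts and were tested. Library totals were 4552711 and 7306157 in Tspan8neg MHCIIhi and 1941518 to 7783841 in the others. Levels are given as normalized counts, which are counts divided by a DESeq2 size factor for each library. They compare libraries, not genes, because they are not divided by gene length. The 2 libraries of the subset resembled each other closely: among the 10499 genes with a mean of at least 50 normalized counts, 30 (0.286%) differed by 2-fold or more between them, against 38 genes (0.373%) in Tspan8pos MHCIIhi, 100 (0.997%) in Tspan8pos MHCIIlo and 493 (4.81%) in Tspan8neg MHCIIlo. Mitochondrial genes held 0.575% and 0.738% of counts in the subset and 0.626% to 1.68% in the others. As these are bulk samples, fewer cells of a type and less RNA per cell cannot be told apart.

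The label was checked against its markers first. Aire was, in normalized counts, at 12508 and 11626 in Tspan8neg MHCIIhi, 947 and 903 in Tspan8neg MHCIIlo, 1807 and 2443 in Tspan8pos MHCIIhi and 66.6 and 156 in Tspan8pos MHCIIlo. Both libraries of the subset thus lay above all 6 others, and the nearest subset, Tspan8pos MHCIIhi, was lower by a log2 fold change of 2.44 ± 0.25 (SE, edgeR adjusted p = 2.3e-05). Aire lies at chr10:78030022-78043610, − strand of GRCm38, where it overlaps Dnmt3l on the opposite strand. Cd80 was at 761 and 673 in Tspan8neg MHCIIhi, 68.9 and 30.2 in Tspan8neg MHCIIlo, 253 and 205 in Tspan8pos MHCIIhi and 66.6 and 61.9 in Tspan8pos MHCIIlo, again without overlap, with 1.58 ± 0.23 on the log2 scale against Tspan8pos MHCIIhi (edgeR adjusted p = 2.8e-04). Tspan8 itself, at 33.3 and 40.9, lay within the range of Tspan8neg MHCIIlo (16.3 and 64.5) and far under the Tspan8pos libraries (1558 to 1818).

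In Tspan8neg MHCIIhi 7 of 14 genes of MHC class II presentation were higher than in each other subset. So were 7 of 16 costimulatory and coinhibitory genes and genes such as Wnt8b, Crhbp and Il13. Lower than in each were 15 of 16 tuft genes together with Runx1, Notch3, Nod1, F3 and Krt5. Against the mean of the 3 other subsets, 2366 genes were called higher, 13.9% of those tested, and 1753 were called lower, 10.3%, and the 2366 became 1526 without replicate 2 of the subset. A call needed a Benjamini-Hochberg adjusted p under 0.01 in edgeR's quasi-likelihood test and a log2 fold change of at least 1 in size. Against each of the 3 subsets in turn, with a call required in all 3 contrasts, 610 genes were higher (3.59%) and 463 lower (2.72%). Without replicate 1 or replicate 2 of the subset the 610 became 339 and 299, and without replicate 1 or replicate 2 of Tspan8pos MHCIIhi 282 and 335. The 463 became 271 and 273 without the libraries of the subset in turn, and with a subset reduced to 1 library, that library is assumed to vary like the others.

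The rule of separation asks only that both libraries lie above, or below, all 6 others. By it 3530 genes tested lay above (20.8%) and 2343 below (13.8%), without a test. By the same rule 2762 genes lay above and 2604 below all others in Tspan8neg MHCIIlo, 2071 and 1941 in Tspan8pos MHCIIlo, and 1393 and 1006 in Tspan8pos MHCIIhi, so that the subset had the most genes above and Tspan8neg MHCIIlo the most below. All 610 genes called higher than each other subset, and 462 of the 463 called lower, were separated in this sense, whereas 310 genes called higher against the mean overlapped at least 1 other library.

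Tspan8pos MHCIIhi was the nearest subset for 466 of the 610 genes, Tspan8neg MHCIIlo for 126 and Tspan8pos MHCIIlo for 18. The median level of the 610 genes was 137 normalized counts in the subset and 22.2 over the 6 other libraries. Relative to the subset, the median level was 25.3% in Tspan8pos MHCIIhi, 13.8% in Tspan8neg MHCIIlo and 6.84% in Tspan8pos MHCIIlo. The genes were therefore mostly present at a lower level in the other MHCIIhi subset, and 139 of them were at least 4 times higher in the lower subset library than in the highest of the other 6. For the 463 lower genes the nearest subset was Tspan8neg MHCIIlo in 225 cases and Tspan8pos MHCIIhi in 215, with a median level of 62.0 in the subset and 277 in the others, and 40 genes were separated by at least 4 times.

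The 20 named genes with the widest separation upwards were chosen by the gap on the log2 scale between the lower of the subset libraries and the highest of the others. Most are known from tissues outside the thymus. Wnt8b, a Wnt ligand of the developing forebrain (chr19:44493472-44514273, + strand), was at 71.4 and 84.2 in Tspan8neg MHCIIhi, 2.50 and 2.08 in Tspan8neg MHCIIlo, 4.48 and 6.42 in Tspan8pos MHCIIhi and 0 and 0.601 in Tspan8pos MHCIIlo. It was 13.5-fold higher than in Tspan8pos MHCIIhi (log2 fold change 3.75 ± 0.43, edgeR adjusted p = 5.5e-05). Lrat, which esterifies retinol for storage (chr3:82892579-82903973, − strand), was at 103 and 112 in Tspan8neg MHCIIhi, 1.25 and 0 in Tspan8neg MHCIIlo, 8.06 and 11.01 in Tspan8pos MHCIIhi and 4.93 and 1.20 in Tspan8pos MHCIIlo, 10.7-fold over Tspan8pos MHCIIhi (edgeR adjusted p = 1.0e-04). These levels in the other 6 libraries are near the floor of 3 counts in several cases, so the fold is given only against the nearest subset.

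Crhbp, the binding protein of corticotropin-releasing hormone, was among the more abundant genes of this group. Its levels were 356 and 377 in Tspan8neg MHCIIhi, 23.8 and 17.7 in Tspan8neg MHCIIlo, 47.4 and 41.3 in Tspan8pos MHCIIhi and 12.3 and 5.41 in Tspan8pos MHCIIlo, a log2 difference of 2.98 ± 0.22 from Tspan8pos MHCIIhi (edgeR adjusted p = 2.3e-06). Madcam1, the addressin by which lymphocytes home to gut vessels, was at 220.2 and 283 in the subset, 31.3 and 28.4 in Tspan8pos MHCIIhi, 6.26 and 17.7 in Tspan8neg MHCIIlo and 0 and 0.601 in Tspan8pos MHCIIlo (8.06-fold over Tspan8pos MHCIIhi, edgeR adjusted p = 2.2e-05). For both genes the order was the subset, Tspan8pos MHCIIhi, Tspan8neg MHCIIlo and Tspan8pos MHCIIlo.

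Several of the 20 genes are known from axon guidance and synapses. Slit1, a secreted guidance cue, was at 342 and 248 in the subset and 35.8 and 44.0 in Tspan8pos MHCIIhi, with 18.8 and 12.5 in Tspan8neg MHCIIlo and 2.46 and 1.20 in Tspan8pos MHCIIlo. Robo3, of the receptor family for such cues, was at 331 and 314 against 4.93 to 56.0 in the other 6 libraries. Slc17a8, a vesicular glutamate transporter, was at 102 and 90.9 against 0 to 12.8, and Slc18a2, the vesicular monoamine transporter, at 70.5 and 74.0 against 0 to 10.7. The kainate receptor gene Grik3 was at 56.8 and 71.6 against 2.46 to 9.17. Jph4, a junctophilin, and Cpne4, a copine, were at 89.0 and 76.4 against 0 to 11.6 and at 91.0 and 113 against 0 to 13.8.

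Genes of eye, liver and skin were also in the group. Myoc, whose product myocilin is known from the outflow tissue of the eye, was at 109.6 and 107 in Tspan8neg MHCIIhi, 0 and 6.24 in Tspan8neg MHCIIlo, 14.3 and 13.8 in Tspan8pos MHCIIhi and 2.46 and 1.804 in Tspan8pos MHCIIlo, 7.32-fold over Tspan8pos MHCIIhi (edgeR adjusted p = 5.9e-04), and it overlaps Myocos on the opposite strand. Cyp1a2, a cytochrome P450 of the liver, was at 115 and 143 in Tspan8neg MHCIIhi, 2.50 and 1.04 in Tspan8neg MHCIIlo, 16.1 and 10.1 in Tspan8pos MHCIIhi and 0 and 0 in Tspan8pos MHCIIlo, 9.40-fold over Tspan8pos MHCIIhi (edgeR adjusted p = 8.1e-05). Aipl1, a chaperone of photoreceptors, was at 73.4 and 62.6 against 0 to 9.17. Pla2g4d, a phospholipase A2 of skin, was at 81.2 and 73.4 against 0 to 11.6, and its Tspan8pos MHCIIhi libraries differed among themselves, at 11.6 and 2.75. Angptl7, which lies inside Mtor on the opposite strand, was at 86.1 and 119 against 0 to 14.3.

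The remaining genes of the 20 were Hoxb9, Efcab11, Apol11b and Apol11a. Hoxb9, a posterior homeobox gene, was at 51.9 and 51.8 against 0 to 8.06. Efcab11, which shares its strand with other annotated genes, was at 59.7 and 63.2 against 0 to 8.26. The apolipoprotein L gene Apol11b was at 155 and 160.1 against 0 to 23.3, and Apol11a at 50.9 and 71.0 against 0 to 8.26. Reads may be divided between the Apol genes, whose sequences are similar, and their single values are uncertain for that reason. With each of the 8 libraries left out in turn, 11 of the 20 kept their call in every fit: Apol11b, Cpne4, Crhbp, Cyp1a2, Jph4, Lrat, Madcam1, Robo3, Slc17a8, Slit1 and Wnt8b. Without replicate 2 of the subset 12 were called and without replicate 1 17, and without replicate 1 or 2 of Tspan8pos MHCIIhi 14 and 16.

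**Figure D1:**
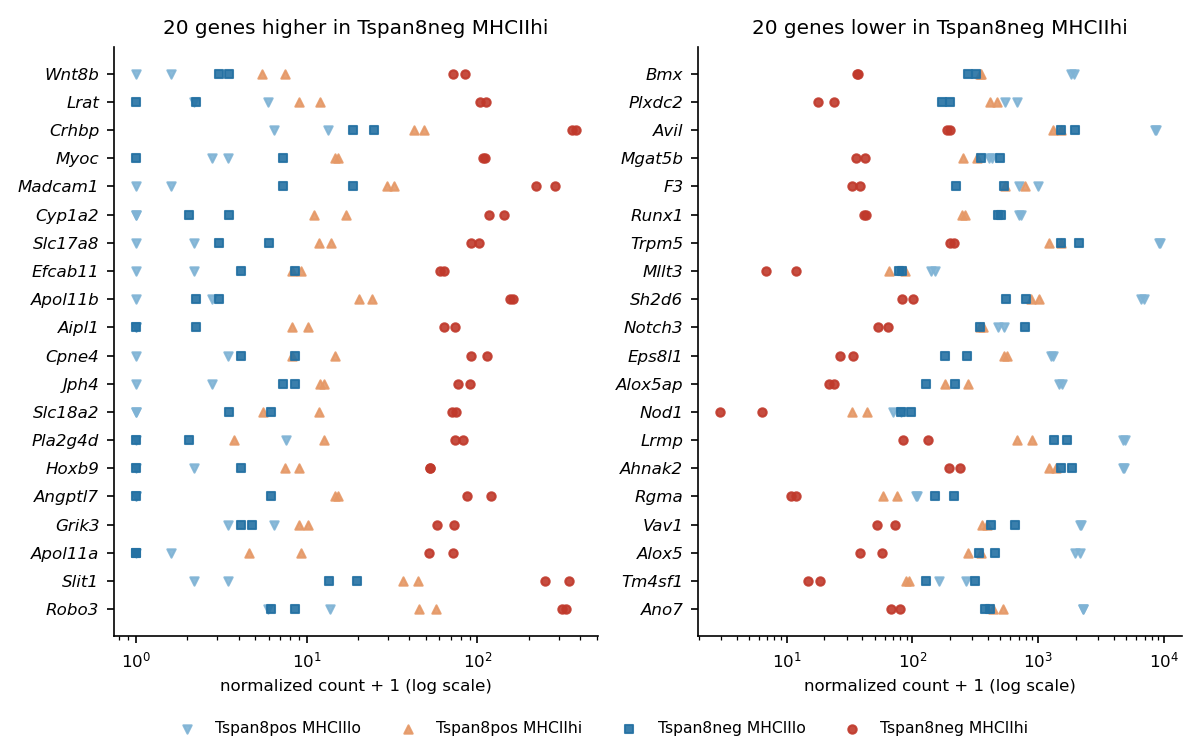
Normalized counts plus 1 (log scale) of the 20 named genes most separated upwards (left) and downwards (right) in Tspan8neg MHCIIhi, with 1 point for each of the 8 libraries. On the left the circles of the subset lie to the right of all other points, with Tspan8pos MHCIIhi next, and on the right they lie to the left of all other points.

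Of the 20 genes, 18 matched a promoter in the RefSeq table for GRCm38.p6, and 2 of the 18 (11.1%) held the letters TATAAA on the gene's own strand lying wholly within positions −45 to −16, counted from the transcription start. Among all 32851 RefSeq promoters given there, 702 (2.14%) held them in the same window. With 1 promoter per symbol, as for the 18, it was 639 of 27025 (2.36%). The share of the 18 rests on 2 genes, and the difference was not tested. The stretches around the start are printed for both genes, with TATAAA in capitals, which began at position −26 in Myoc and −29 in Cyp1a2. A match of letters describes the sequence and is no measure of use.
Myoc (chr1:162639090-162639159, + strand): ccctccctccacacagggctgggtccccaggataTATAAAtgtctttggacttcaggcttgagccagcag
Cyp1a2 (chr9:57683646-57683715, − strand): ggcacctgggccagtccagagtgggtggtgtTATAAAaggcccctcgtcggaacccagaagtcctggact

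Among the 20 named genes most separated downwards, 5 belong to the tuft list described further on (Avil, Trpm5, Sh2d6, Alox5ap and Alox5). Bmx, a tyrosine kinase of the Tec family (chrX:164192842-164258193, − strand), was the gene with the widest gap, at 36.2 and 35.5 in Tspan8neg MHCIIhi, 273 and 321 in Tspan8neg MHCIIlo, 351 and 345 in Tspan8pos MHCIIhi and 1928 and 1804 in Tspan8pos MHCIIlo. It was 8.77-fold lower than in Tspan8neg MHCIIlo (log2 fold change -3.13 ± 0.17, edgeR adjusted p = 5.9e-07). Runx1, a transcription factor of blood cell development, was at 40.1 and 42.1 in Tspan8neg MHCIIhi, 505 and 482 in Tspan8neg MHCIIlo, 249 and 259 in Tspan8pos MHCIIhi and 702 and 724 in Tspan8pos MHCIIlo. Its 2 libraries in the subset were nearly equal, and Tspan8pos MHCIIhi was the nearest subset at 6.40-fold (edgeR adjusted p = 4.9e-07).

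Other genes of this group encode receptors and signalling proteins. Notch3, a receptor of the Notch family, was at 51.9 and 62.6 in Tspan8neg MHCIIhi, 343 and 779.5 in Tspan8neg MHCIIlo, 346 and 362 in Tspan8pos MHCIIhi and 476 and 534 in Tspan8pos MHCIIlo. Nod1, a sensor of bacterial cell wall fragments, was at 1.96 and 5.42 in the subset and 32.2 to 95.7 in the others. F3, the tissue factor that starts coagulation, was at 37.2 and 31.9 against 223 to 993. Plxdc2, a transmembrane protein, was at 16.6 and 22.9 against 170.3 to 674, and Mllt3, a reader of histone acylation, at 5.87 and 10.8 against 64.2 to 150.4. Bmx, Avil, Trpm5, Sh2d6, Lrmp, Ahnak2, Vav1, Alox5, Alox5ap and Ano7 had their highest level in Tspan8pos MHCIIlo, for example 9177 and 9283 for the cation channel gene Trpm5 against 198 and 213 in the subset. Of the 20 genes, 19 kept their call with every library left out in turn.

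Gene lists were next described by how many tested members were called against the mean of the other subsets, to be read beside the 13.9% higher and 10.3% lower among all genes tested and their median log2 fold change of -0.00898. Of 18 genes of Aire and its partners, 5 were higher, 1 was lower and the median was -0.20, and 3 were higher than each other subset, namely Aire, Sirt1 and Dnmt3l. Sirt1, the deacetylase reported to act on Aire, was at 1815 and 1805 in Tspan8neg MHCIIhi, 396 and 254 in Tspan8neg MHCIIlo, 687 and 630.2 in Tspan8pos MHCIIhi and 202 and 390.3 in Tspan8pos MHCIIlo (log2 fold change 1.40 ± 0.25 against Tspan8pos MHCIIhi, edgeR adjusted p = 0.0014). Dnmt3l, a cofactor of DNA methylation, was at 221 and 181 in Tspan8neg MHCIIhi, 7.51 and 10.4 in Tspan8neg MHCIIlo, 47.4 and 55.0 in Tspan8pos MHCIIhi and 2.46 and 1.804 in Tspan8pos MHCIIlo (log2 fold change 1.91 ± 0.23 against Tspan8pos MHCIIhi, edgeR adjusted p = 8.5e-05). Because Dnmt3l and Aire lie on opposite strands of the same stretch and use of the strand in counting is unsettled, reads of one may have been counted for the other. Fezf2, the other main regulator of TRA genes, was at 2049 and 1952 in the subset and 1344 and 1560.4 in Tspan8pos MHCIIhi, a difference that did not pass the test (0.40 ± 0.16, edgeR adjusted p = 0.072). Prdm1, a transcriptional repressor, was lower against the mean (-2.11 ± 0.20, edgeR adjusted p = 1.1e-05), at 73.4 and 79.4 against 114 and 83.3 in Tspan8neg MHCIIlo, 560.3 and 359.6 in Tspan8pos MHCIIhi and 722 and 665 in Tspan8pos MHCIIlo.

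Of 14 genes of MHC class II presentation, 13 rose against the mean and 1 fell, with a median of 1.8, and 7 rose against each subset. The 7 were Ciita, the master regulator of the class II genes, its partner Rfx5, the chain genes H2-Aa and H2-Eb1, and H2-DMb2, H2-Oa and H2-Ob of the peptide-exchange machinery. H2-DMb2 was at 3001 and 3062 in Tspan8neg MHCIIhi, 835 and 632 in Tspan8neg MHCIIlo, 810.1 and 931 in Tspan8pos MHCIIhi and 106 and 95.0 in Tspan8pos MHCIIlo, with a log2 fold change of 1.74 ± 0.15 against Tspan8pos MHCIIhi (edgeR adjusted p = 7.9e-06). H2-Oa was at 1147 and 1250.5 in Tspan8neg MHCIIhi, 163 and 202 in Tspan8neg MHCIIlo, 464 and 428 in Tspan8pos MHCIIhi and 49.3 and 51.7 in Tspan8pos MHCIIlo (1.36 ± 0.14 against Tspan8pos MHCIIhi, edgeR adjusted p = 2.7e-05). Ciita was at 1632 and 1684 in Tspan8neg MHCIIhi, 575 and 579 in Tspan8neg MHCIIlo, 450.2 and 537 in Tspan8pos MHCIIhi and 86.3 and 81.8 in Tspan8pos MHCIIlo, and its nearest subset was Tspan8neg MHCIIlo (1.44 ± 0.13, edgeR adjusted p = 1.4e-05). Since cells were sorted on surface MHCII, a difference between MHCIIhi and MHCIIlo in these genes is what the gate chose. The contrast with Tspan8pos MHCIIhi does not cross that gate but crosses the Tspan8 gate. Whether surface MHCII differed between the MHCIIhi subsets was not tested. Against Tspan8pos MHCIIhi, H2-Ab1 and Cd74 stayed just under the fold limit, at 1.00 ± 0.12 and 0.97 ± 0.11 on the log2 scale. The 1 gene that fell was Ctsl, the protease cathepsin L, at 649.7 and 669 against 1064 to 4251.

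Of 16 costimulatory and coinhibitory genes, 9 rose against the mean, 2 fell (Vtcn1 and Nectin2) and the median was 1.64. Vtcn1, at 3.91 and 1.20, lost its call without replicate 2 of the subset, of Tspan8neg MHCIIlo or of Tspan8pos MHCIIlo, and with all libraries thinned to equal depth, a check added once the data had been seen. Against each other subset 7 rose, namely Cd80, Cd86, Cd40, Icosl, Cd70, Tnfsf9 and Pdcd1lg2. Cd86, which like CD80 binds CD28 on T cells, was at 111 and 114 in Tspan8neg MHCIIhi, 12.5 and 15.6 in Tspan8neg MHCIIlo, 19.7 and 23.9 in Tspan8pos MHCIIhi and 2.46 and 3.01 in Tspan8pos MHCIIlo (2.30 ± 0.29 against Tspan8pos MHCIIhi, edgeR adjusted p = 1.2e-04). Icosl, the ligand of ICOS, was at 2953 and 2789 in Tspan8neg MHCIIhi, 544 and 634 in Tspan8neg MHCIIlo, 641 and 692 in Tspan8pos MHCIIhi and 246 and 234 in Tspan8pos MHCIIlo (2.05 ± 0.13 against Tspan8pos MHCIIhi, edgeR adjusted p = 1.0e-06). Cd70, the ligand of CD27, was at 129 and 155 in Tspan8neg MHCIIhi, 13.8 and 21.9 in Tspan8neg MHCIIlo, 26.0 and 46.8 in Tspan8pos MHCIIhi and 2.46 and 7.82 in Tspan8pos MHCIIlo (1.91 ± 0.34 against Tspan8pos MHCIIhi, edgeR adjusted p = 0.0013). For Cd86 and Cd70 no subset overlapped another, with Tspan8pos MHCIIhi second and Tspan8pos MHCIIlo lowest. Cd274, which encodes PD-L1, was at 1062 and 1087 against 819 to 1709.5 and was not called.

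Of 21 genes of RANK and NF-kB signalling, through which mTECs mature, 9 rose against the mean and 2 fell, with a median of 0.80. The receptor Cd40, counted also among the costimulatory genes, was at 1024 and 956 in Tspan8neg MHCIIhi, 164 and 186 in Tspan8neg MHCIIlo, 260.5 and 236 in Tspan8pos MHCIIhi and 59.2 and 45.1 in Tspan8pos MHCIIlo (1.93 ± 0.15 against Tspan8pos MHCIIhi, edgeR adjusted p = 2.9e-06). Nfkbie, an inhibitor of NF-kB, was at 1899 and 1684 against 431 to 813, and Birc2, a ubiquitin ligase of the pathway, at 1537 and 1443 against 340.1 to 769. Cd40, Nfkbie and Birc2 were called higher than each other subset. Ltbr, the lymphotoxin receptor, was called lower than each, at 127 and 144 in Tspan8neg MHCIIhi, 324 and 228 in Tspan8neg MHCIIlo, 468 and 534 in Tspan8pos MHCIIhi and 483 and 460.1 in Tspan8pos MHCIIlo (-1.09 ± 0.18 against Tspan8neg MHCIIlo, edgeR adjusted p = 6.9e-04).

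Of 16 thymic chemokine genes, 10 rose against the mean and 1 fell, and Ccl22, Ccl5, Ccl19 and Cxcl9 rose against each subset. Ccl22, which attracts cells bearing CCR4, was at 882 and 1129.6 in Tspan8neg MHCIIhi, 71.4 and 189 in Tspan8neg MHCIIlo, 157 and 183 in Tspan8pos MHCIIhi and 14.8 and 12.03 in Tspan8pos MHCIIlo (2.50 ± 0.31 against Tspan8pos MHCIIhi, edgeR adjusted p = 9.6e-05). Ccl5 was at 440.3 and 543 against 27.7 to 252, and Ccl19, a ligand of CCR7, at 721 and 796 against 19.8 to 324. Xcl1, which draws dendritic cells into the medulla, was at 15.7 and 37.9 against 0 to 5.50, and was called against the mean but not in all 3 single contrasts. Without replicate 2 of the subset it lost the call against the mean. The 1 gene that fell was Ccl21a, at 1065 and 1017 against 1623 to 19065.

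Markers of dendritic cells and macrophages, which share many of these genes, were present in all libraries. Of 14 tested markers 6 rose and 2 fell against the mean, and 2 rose against each subset, Flt3 (76.3 and 81.8 against 2.46 to 18.7) and Zbtb46 (335 and 332 against 76.0 to 162). The summed level of the list was 2552 and 2951 in the subset, 2812 and 2986 in Tspan8pos MHCIIhi, 958 and 1731 in Tspan8neg MHCIIlo and 1587 and 1679 in Tspan8pos MHCIIlo. Among defining markers Itgax was at 19.6 and 28.9 and Xcr1 at 14.7 and 24.7 in the subset, and Clec9a and Siglech were too low to be tested. The part of such cells in the class II, costimulatory and chemokine values was not tested. Summed B cell markers were at 370 and 415 in the subset and 170 to 400 in the others, where 3 of 10 rose against the mean and none against each subset. Summed thymocyte markers were at 403 and 881, against 404 to 1214 in the Tspan8pos libraries and 2629 and 7303 in Tspan8neg MHCIIlo.

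Lists of peripheral tissues hold TRA genes by their known expression outside the thymus. A gene silent elsewhere passes the count filter only through the subset that has it, so the shares describe the genes that passed and are not evidence about whole lists. Among thyroid, pituitary and adrenal genes 10 of 15 in the table passed, 8 were higher and none lower. Thyroglobulin (Tg), the precursor of thyroid hormone, was at 78.3 and 96.9 in Tspan8neg MHCIIhi, 6.26 and 10.4 in Tspan8neg MHCIIlo, 14.3 and 11.9 in Tspan8pos MHCIIhi and 4.93 and 0 in Tspan8pos MHCIIlo. Pomc, the precursor of corticotropin, was at 195 and 221 in Tspan8neg MHCIIhi, 1.25 and 19.8 in Tspan8neg MHCIIlo, 40.3 and 33.9 in Tspan8pos MHCIIhi and 2.46 and 3.01 in Tspan8pos MHCIIlo (2.42 ± 0.42 against Tspan8pos MHCIIhi, edgeR adjusted p = 9.9e-04). Cga, the shared chain of pituitary glycoprotein hormones, was at 36.2 and 45.1 against 0 to 9.85. All 3 were called higher than each subset, and MHCIIlo libraries had at most 19.8 normalized counts of any of them.

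Of milk, salivary, lacrimal and urinary genes 12 of 21 passed, with 8 higher and 2 lower. Csn2, beta-casein, was at 3208 and 3978 in Tspan8neg MHCIIhi, 134 and 237 in Tspan8neg MHCIIlo, 1069.7 and 1147 in Tspan8pos MHCIIhi and 377 and 416 in Tspan8pos MHCIIlo (1.64 ± 0.21 against Tspan8pos MHCIIhi, edgeR adjusted p = 1.3e-04), and Csn1s2a was at 66.5 and 83.6 against 0 to 25.1. The 2 lower genes, Bpifa1 and Scgb1a1, are secreted airway proteins and were highest in Tspan8pos MHCIIhi, at 6331 and 5842 for Bpifa1 against 352 and 395 in the subset. Of 16 pancreatic genes that passed out of 25, 8 were higher and 1, Iapp, lower. Gad1, glutamate decarboxylase, was at 166 and 169 in Tspan8neg MHCIIhi, 20.04 and 17.7 in Tspan8neg MHCIIlo, 47.4 and 45.9 in Tspan8pos MHCIIhi and 12.3 and 10.8 in Tspan8pos MHCIIlo (1.78 ± 0.22 against Tspan8pos MHCIIhi, edgeR adjusted p = 1.0e-04), while insulin gene Ins2 at 29.4 and 41.5 was not called against Tspan8pos MHCIIhi at 23.3 and 16.5 (0.78 ± 0.42, edgeR adjusted p = 0.17).

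Of liver and plasma protein genes 24 of 28 passed, with 13 higher and 2 lower. Itih3, an inhibitor heavy chain of plasma, was at 81.2 and 110.1 in Tspan8neg MHCIIhi, 0 and 2.08 in Tspan8neg MHCIIlo, 14.3 and 9.17 in Tspan8pos MHCIIhi and 0 and 1.20 in Tspan8pos MHCIIlo (2.96 ± 0.45 against Tspan8pos MHCIIhi, edgeR adjusted p = 3.9e-04), and Fgg, fibrinogen gamma, at 118 and 153 in Tspan8neg MHCIIhi, 37.6 and 35.4 in Tspan8neg MHCIIlo, 19.7 and 20.2 in Tspan8pos MHCIIhi and 0 and 6.01 in Tspan8pos MHCIIlo (1.82 ± 0.35 against Tspan8neg MHCIIlo, edgeR adjusted p = 0.0016). The apolipoprotein genes Apoa4, Apob and Apoc3 rose against the mean but were not called against Tspan8pos MHCIIhi, for Apob 195 and 261 against 170.1 and 197. More members called higher did not mean a larger sum. The summed level of the liver list was 6200 and 7092 in the subset and 11630 and 11340 in Tspan8pos MHCIIhi, where C3 alone was at 8204 and 7259 against 3197 and 3624. Likewise the pancreatic sum was 1056 and 1228 against 1450 and 1650, with Iapp at 83.2 and 107 against 683 and 806.

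Of brain genes 14 of 21 passed, with 6 higher and 2 lower. Reln, the secreted reelin of the developing cortex, was at 175 and 186 in Tspan8neg MHCIIhi, 8.77 and 13.5 in Tspan8neg MHCIIlo, 29.5 and 40.4 in Tspan8pos MHCIIhi and 0 and 4.81 in Tspan8pos MHCIIlo (2.31 ± 0.32 against Tspan8pos MHCIIhi, edgeR adjusted p = 2.2e-04), and the neurofilament gene Nefm at 124 and 143 against 5.41 to 38.5. Map2, a microtubule protein of neurons, was instead lower than in each subset, at 155 and 168 against 273 to 671. Of testis and germline genes 10 of 21 passed and 7 were higher, among them Tex14 at 105 and 119 against 0 to 26.6, Stra8 at 50.9 and 65.6 against 0 to 17.4 and Piwil2 at 38.2 and 37.9 against 3.61 to 10.02, which rose against each subset. Of eye genes 7 of 17 passed, 4 were higher and the lens crystallin gene Cryaa was at 129 and 126 in Tspan8neg MHCIIhi, 5.01 and 3.12 in Tspan8neg MHCIIlo, 33.1 and 38.5 in Tspan8pos MHCIIhi and 2.46 and 3.61 in Tspan8pos MHCIIlo (1.77 ± 0.27 against Tspan8pos MHCIIhi, edgeR adjusted p = 4.5e-04).

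Of 19 muscle genes that passed, 9 were higher and 1 lower. Titin (Ttn) was at 1228 and 1139 in Tspan8neg MHCIIhi, 549.8 and 347 in Tspan8neg MHCIIlo, 234 and 216 in Tspan8pos MHCIIhi and 126 and 156 in Tspan8pos MHCIIlo (1.32 ± 0.20 against Tspan8neg MHCIIlo, edgeR adjusted p = 3.2e-04). The myosin heavy chain genes Myh4 and Myh7 were at 227 and 234 against 9.86 to 93.1 and at 74.4 and 74.6 against 4.21 to 20.2. Skeletal actin (Acta1), the lower one, was at 7.83 and 14.4 against 233 and 176 in Tspan8neg MHCIIlo. Myog, the muscle regulator, was at 30.3 and 31.9 against 118 and 110.3 in Tspan8neg MHCIIlo and was not called against the mean.

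Other lists held more lower than higher calls. All 16 tuft genes fell against the mean, with a median of -3.42, and 15 fell against each subset, the exception being Hpgds. Plcb2, a phospholipase C of taste signalling, was at 116 and 156 in Tspan8neg MHCIIhi, 1399 and 2050.2 in Tspan8neg MHCIIlo, 633 and 803 in Tspan8pos MHCIIhi and 3749 and 3800.4 in Tspan8pos MHCIIlo (-2.44 ± 0.22 against Tspan8pos MHCIIhi, edgeR adjusted p = 8.8e-06). Pou2f3, the factor that specifies tuft cells, was at 109.6 and 108 in Tspan8neg MHCIIhi, 254 and 342 in Tspan8neg MHCIIlo, 699 and 679.8 in Tspan8pos MHCIIhi and 1536 and 1488 in Tspan8pos MHCIIlo (-1.54 ± 0.17 against Tspan8neg MHCIIlo, edgeR adjusted p = 4.1e-05). Of 19 cornified genes 16 fell against the mean and none against each subset, and Tspan8neg MHCIIlo was the nearest subset for all 16, as for Krt10 with 270.1 and 389 against 148 and 242. The summed level of this list was 4558 and 4903 in the subset, above Tspan8neg MHCIIlo (1970 and 2109) and under the Tspan8pos libraries (41870 to 51380). Of 10 microfold genes 5 fell against the mean and none against each subset.

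Of 15 genes of immature and junctional mTECs 4 fell and none rose. Krt5, a basal keratin, was the 1 that fell against each subset, at 1282 and 1136 in Tspan8neg MHCIIhi, 9088 and 6047 in Tspan8neg MHCIIlo, 6823 and 6593 in Tspan8pos MHCIIhi and 6424 and 5924 in Tspan8pos MHCIIlo (-2.43 ± 0.18 against Tspan8pos MHCIIlo, edgeR adjusted p = 1.0e-06). Of 21 interferon-stimulated genes 8 fell against the mean and none rose, and Oas2, Irf7, Isg15 and Ifit3 fell against each subset. Oas2, a sensor of double-stranded RNA, was at 33.3 and 33.7 in Tspan8neg MHCIIhi, 441 and 404 in Tspan8neg MHCIIlo, 121 and 161 in Tspan8pos MHCIIhi and 535 and 611 in Tspan8pos MHCIIlo (-2.13 ± 0.20 against Tspan8pos MHCIIhi, edgeR adjusted p = 1.3e-05). Irf7, which drives interferon production, was at 247 and 276 in Tspan8neg MHCIIhi, 1232 and 1030.3 in Tspan8neg MHCIIlo, 931 and 1011 in Tspan8pos MHCIIhi and 1886 and 1728 in Tspan8pos MHCIIlo (-1.95 ± 0.14 against Tspan8pos MHCIIhi, edgeR adjusted p = 2.2e-06). In total 12 of the 21 lay below all 6 other libraries, while Usp18, at 816 and 833 against 437 to 689, lay above them. Among all genes tested 13.8% lay below and 20.8% above.

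Of 24 transcription factors of mTEC maturation that passed, 5 rose and 10 fell against the mean. Irf4 and Insm1 rose against each subset and Pou2f3 and Bach2 fell. Irf4 was at 1131 and 1058 in Tspan8neg MHCIIhi, 207 and 261 in Tspan8neg MHCIIlo, 296 and 300.0 in Tspan8pos MHCIIhi and 61.6 and 55.3 in Tspan8pos MHCIIlo (1.81 ± 0.15 against Tspan8pos MHCIIhi, edgeR adjusted p = 4.3e-06), and Insm1, a factor of endocrine cells, at 771 and 745 against 33.1 to 242. Bach2, a repressor, was at 34.2 and 34.3 against 69.7 to 108. Of 27 cell cycle genes 17 rose against the mean and none against each subset. The kinase gene Cdk1 was at 273 and 274 in Tspan8neg MHCIIhi, 116 and 176 in Tspan8neg MHCIIlo, 26.0 and 26.6 in Tspan8pos MHCIIhi and 7.39 and 13.8 in Tspan8pos MHCIIlo, and Tspan8neg MHCIIlo was the nearest subset (0.81 ± 0.22, edgeR adjusted p = 0.011), so both Tspan8neg subsets had high levels. Foxn1, the factor of thymic epithelial identity, was at 977 and 1035 against 265 to 581, and was the only gene of that list of 13 to rise against the mean, where 2 fell. Of 10 cortical genes 4 rose and 1 fell against the mean and none was called against each subset. Of 13 fibroblast and endothelial genes 2 rose and none fell against the mean, and the median log2 fold change of the list was -0.87. The 2 genes, Col1a1 (417 and 428 against 53.9 to 194) and Pdgfrb, also rose against each subset. The summed level of that list was 2462 and 2559 in the subset and 933 to 3826 in the others. The part of fibroblasts in these values was not tested.

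**Figure D2:**
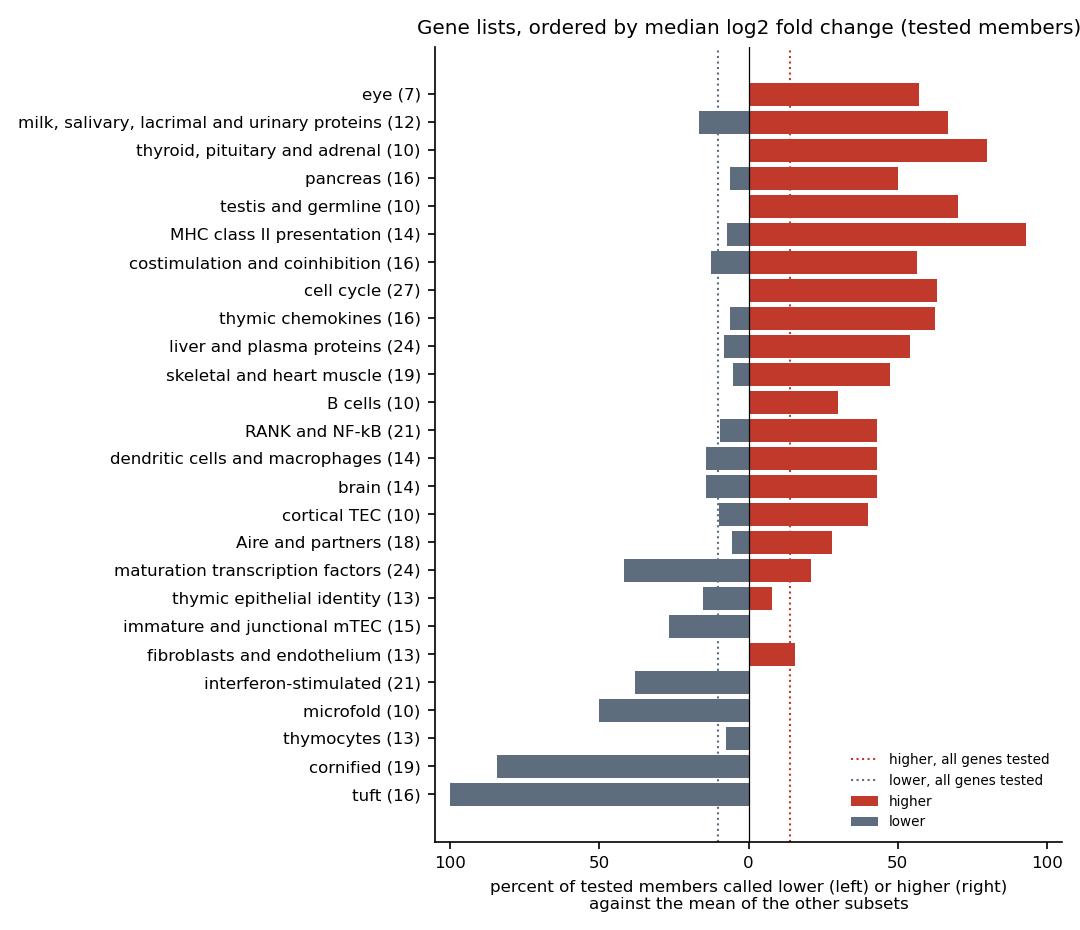
Percent of the tested members of 26 gene lists called higher (right) or lower (left) in Tspan8neg MHCIIhi against the mean of the other subsets, ordered by the median log2 fold change, with the number tested in brackets and the shares over all genes tested, 13.9% and 10.3%, as dotted lines. MHC class II genes stand furthest to the right with 13 of 14 higher, and tuft genes furthest to the left with 16 of 16 lower.

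The breadth of detection was compared at 1 depth, because deeper libraries show more genes. Equal depth does not make the number of cells or the amount of RNA behind the libraries equal. Their part in the values below was not tested. The expected number of genes with at least 1 count was computed for a draw of 1941518 counts from every library, the total of the smallest. It was 20895.7 and 21106.3 in Tspan8neg MHCIIhi, 19275.0 and 19542.8 in Tspan8pos MHCIIhi, 18461.5 and 18846.4 in Tspan8neg MHCIIlo, and 18173.0 and 18565.1 in Tspan8pos MHCIIlo. Both libraries of the subset thus lay above all others, with a mean of 21001.0 ± 148.9 (SD, n = 2) against 18810.6 ± 518.0 (SD, n = 6), a difference of 2190.3 genes. The exact two-sided permutation test gave p = 0.0714, which is the smallest that a choice of 2 libraries among 8 allows, so this test cannot pass 0.05. The difference was 1694.0 genes when at least 3 counts were asked for, 968.9 with at least 10 and 1583.3 among protein-coding genes.

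**Figure D3:**
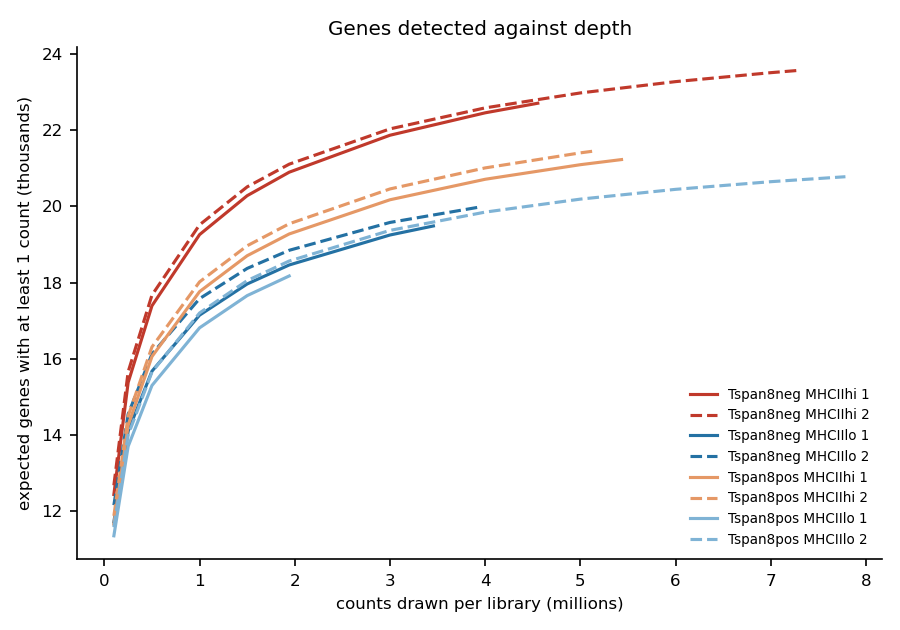
Expected number of genes with at least 1 count against the number of counts drawn from each library, with 1 line per library and the colours marking the 4 subsets. At 1941518 counts the lines of Tspan8neg MHCIIhi stand at 20895.7 and 21106.3 genes, above the highest of the others at 19542.8.

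The additional genes were of low and middle abundance. At that depth 3724.9 and 3621.3 genes were expected with 1 or 2 counts in the subset, against 2906.9 to 3476.5 in the other libraries, and 9024.5 and 9295.3 with 10 to 99 counts against 7545.0 to 8253.1. Genes of the next class, which starts at 100 counts, were fewer, at 3991.3 and 4011.4 against 4188.1 to 4431.4. The most abundant genes, in the class above it, numbered 191.2 and 185.7 against 189.5 to 219.2, with overlap.

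By class, olfactory receptor genes, the odorant sensors of the nose, were expected at 38.6 and 36.7 of 78 in the subset and at 9.0 to 16.3 in the others. Defensins, antimicrobial peptides of gut and skin, were at 21.9 and 23.3 of 30 against 4.5 to 16.3. Rhox homeobox genes, known from reproductive tissues, were at 11 and 10.3 of 18 against 2.5 to 5.7, and cytochrome P450 genes at 72.9 and 75.9 of 89 against 38.6 to 66.0. Each of these classes was separated from all 6 other libraries, as were long noncoding genes (2004.7 and 2062.6 against 1507.3 to 1758.5 of 3467) and pseudogenes (685.4 and 699.0 against 474.0 to 559.5 of 1421). Bitter taste receptors went the other way, at 2.0 and 6.0 of 31 against 9.0 to 24.6. Histone genes (24.3 and 31.7 of 47) overlapped the others, as did immunoglobulin variable genes (22.5 and 29.7 of 98), which were highest in Tspan8neg MHCIIlo (54.5 and 71.5). In the family of 20 classes the smallest Benjamini-Hochberg adjusted p of the exact permutation test was 0.0952. Members of these classes resemble each other in sequence, and their single counts are uncertain.

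**Figure D4:**
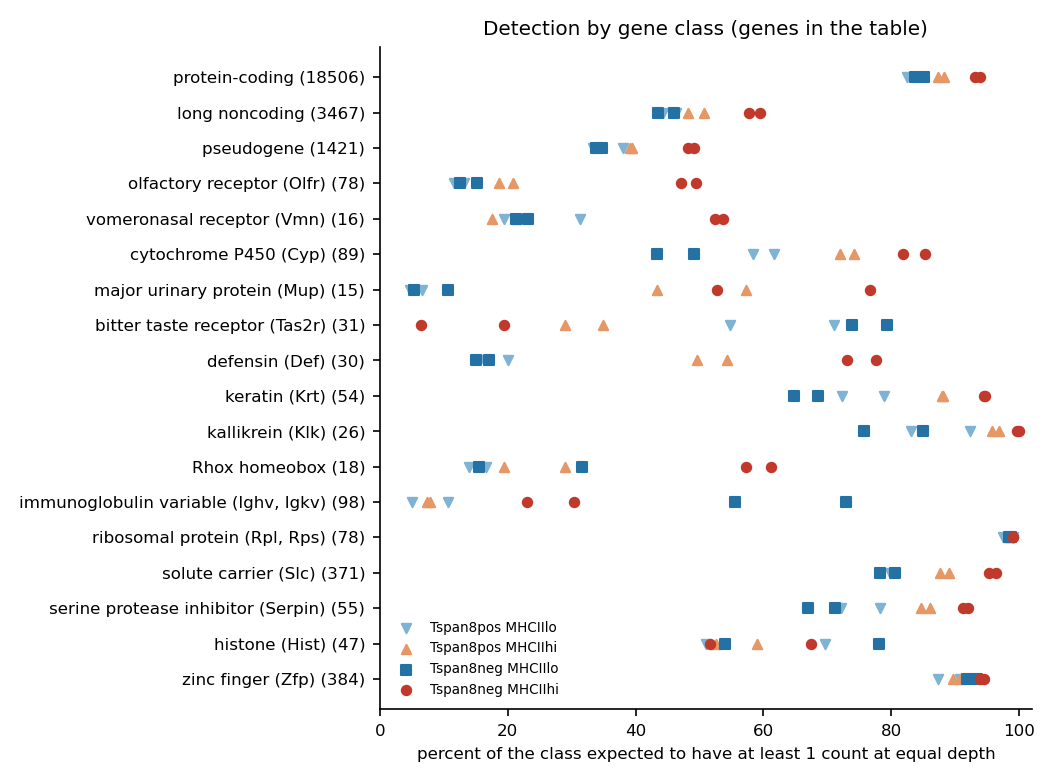
Percent of the genes of 18 classes in the table expected to have at least 1 count at 1941518 counts, with 1 point per library and the class size in brackets. The circles of Tspan8neg MHCIIhi lie furthest right for olfactory receptors (38.6 and 36.7 of 78) and Rhox genes (11 and 10.3 of 18) and furthest left for bitter taste receptors (2.0 and 6.0 of 31). Every gene in the table has a count in at least 2 libraries, so class sizes are not those of whole families.

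After 1 seeded thinning of every library to that depth, 468 genes had counts in both libraries of the subset and none in the 6 others. The same count was 106 for Tspan8neg MHCIIlo, 58 for Tspan8pos MHCIIhi and 52 for Tspan8pos MHCIIlo. With at least 3 counts in both libraries it was 72 against 22, 2 and 4. The most abundant genes without any count in the 6 others before thinning were Gm4204 (76 and 134 counts) and Gm3272 (16 and 44), both processed pseudogenes, whose reads may belong to close copies. The first genes of known function in that order were Cd209g, a C-type lectin, at 11 and 21 counts and Gdf6, a growth factor of joint formation, at 9 and 23. A count of 0 allows up to 3 counts, so these are genes not detected elsewhere at this depth. Genes with a count in fewer than 2 libraries are not in the table, for any subset.

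Wider detection did not mean a more even distribution of counts. The effective number of genes, the exponential of the Shannon entropy of the count shares, was 4213.2 ± 48.6 (SD, n = 2) in the subset and 4648.9 ± 198.6 (SD, n = 6) in the others (exact two-sided permutation p = 0.0714, the smallest possible). The subset was lower by 435.7 on average. Its 10 most abundant genes held 9.98% and 9.96% of all counts, against 5.08% to 7.57% elsewhere, and the noncoding gene Gm43305 alone 3.23% and 3.07%. Without the 100 genes of the highest mean share the direction turned, and the subset was higher by 523.9 (exact permutation p = 0.143).

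Called genes were also placed along the chromosomes. Of 2365 genes with a position called higher against the mean, 42.7% had an adjacent tested gene that was also called higher, compared with 25.1% of all 16960 tested genes. For the calls against each subset these shares were 19.3% and 6.99%. Genes called lower did so too, with 32.0% against 19.0% for the mean and 13.4% against 5.37% for each subset, so neighbouring calls were found in both directions. Duplicated gene families and overlapping genes are included, and no test was made. There were 44 runs of at least 4 consecutive tested genes called higher, with 204 genes in all. The longest, of 10 genes, was the MHC class II region at chr17:34211312-34460734.

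The casein region (chr5:87666208-87966352) held a run of 6 genes, all above the 6 other libraries. Csn1s1 was at 35.2 and 43.9 against 0 to 27.1, Csn3 at 33.3 and 24.7 against 2.50 to 11.01 and BC051076 at 10.8 and 14.4 against 0 to 0.601, around the much more abundant Csn2. The run of Lrat, Fgg, Fga and Fgb (chr3:82892579-83049863) joined the fibrinogen genes to Lrat, with Fga at 37.2 and 32.5 against 0 to 13.4 and Fgb at 57.7 and 58.4 against 1.25 to 23.9. For all 4 genes both libraries of the subset lay above the 6 others.

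The cytokine region of Il4, Il13, Rad50 and Il5 (chr11:53602982-53725106) also formed a run. Il13, a cytokine of type 2 immunity, was at 537 and 666 in Tspan8neg MHCIIhi, 11.3 and 14.6 in Tspan8neg MHCIIlo, 141 and 157 in Tspan8pos MHCIIhi and 2.46 and 6.62 in Tspan8pos MHCIIlo (1.96 ± 0.18 against Tspan8pos MHCIIhi, edgeR adjusted p = 9.9e-06). Il5, which acts on eosinophils, was at 48.9 and 49.9 against 0 to 13.4, and Il4 at 11.7 and 15.04 against 0 to 4.93. Rad50, a DNA repair gene between them, was at 458 and 516 in Tspan8neg MHCIIhi, 192 and 214 in Tspan8neg MHCIIlo, 164 and 182 in Tspan8pos MHCIIhi and 126 and 136 in Tspan8pos MHCIIlo (1.18 ± 0.15 against Tspan8neg MHCIIlo, edgeR adjusted p = 1.1e-04). All 4 lay above the 6 other libraries, and Il13, Rad50 and Il5 were called against each subset. On chr17 the tryptase genes Prss34 (82.2 and 102 against 0 to 17.4) and Prss29 (99.8 and 125 against 0 to 30.3) led a run of 5 with Tpsab1, Tpsb2 and Tpsg1. These runs were picked for display after their values were seen.

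**Figure D5:**
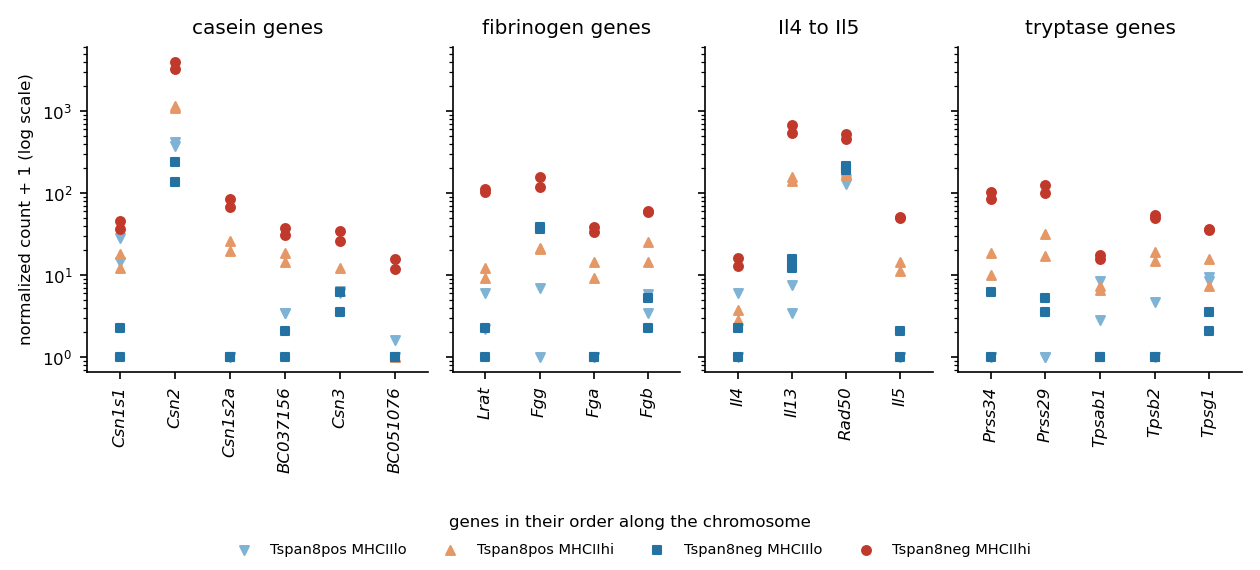
Normalized counts plus 1 (log scale) of genes in 4 runs, in their order along the chromosome, with 1 point per library. In all 4 panels both circles of Tspan8neg MHCIIhi lie above the 6 other points, from BC051076 at 10.8 and 14.4 to Csn2 at 3208 and 3978 normalized counts.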

How the data were processed

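RNA-seq libraries of 4 sorted mTEC subsets were used, 2 per subset. The deposited table, made by the authors, holds expected counts per gene, which here were whole numbers, so rounding changed nothing. The submitters' processing notes name Salmon 1.8.0, DESeq2 1.30.0, FastQC and the mm10 build. How strand was treated in counting is not given in the sources used here, and the labels and the study's methods describe the library preparation differently. No column was left unused (0). Of 25466 identifiers 25336 matched a symbol in the GENCODE M21 annotation of GRCm38, and 130 did not.

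The quasi-likelihood test of edgeR 4.0.16, which rests on limma 3.58.1 and ran under R 4.3.3, was applied to the counts, with TMM normalization, filterByExpr by subset and 1 model over all 8 libraries with a mean per subset, Benjamini-Hochberg adjusted over 17006 genes. The subset was contrasted with the mean of the 3 others and with each of them. The biological coefficient of variation was 15.5%. DESeq2 1.42.0 gave size factors and an alternative test. Breadth, shares and figures used Python 3.11.15, numpy 2.4.6, pandas 2.3.3, scipy 1.17.1 and matplotlib 3.10.9. Equal depth was computed by hypergeometric expectation, and groups of single values were compared by an exact permutation test, two-sided. The test scripts were tested on simulated data, with 200 genes changed in the subset. There edgeR calls against the mean recovered 75% of the 4-fold and 34% of the 2-fold changes, with 4 false calls. Calls against each subset recovered 57% and 9%, with 1 false call. A gene without a call may therefore still differ. A count of 0 allows up to 3 counts, a floor that covers counting error only.

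The rule for named genes took Aire, Cd80, H2-Ab1 and Tspan8, 2 to 4 genes of each list by the size of their fold change against the mean, and in each direction the 20 genes with a symbol other than a predicted one, at least 50 normalized counts and the widest gap between groups on the log2(count + 1) scale. Further list members and genes of runs were named after their values were seen. The members and lists were chosen with earlier results of these data known. Alternatives covered the tool, the scaling, the filter, the thresholds, a replicate block, every library left out in turn and, chosen after seeing the data, thinning of all libraries to the smallest total. The promoter comparison over all called genes was void, because fewer than 80% of them matched a promoter (440 of 610 and 332 of 463). The other kinds of data of the study were not used here.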

Additional observations from a re-analysis of the deposited data

How the results depend on the processing

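The direction of breadth held under every alternative run, from 968.9 to 2336.8 additional genes. With a library left out it could not turn, because the values of the kept libraries stayed the same and both libraries of the subset lay above all others. Without the 100 genes of the highest mean share the effective number of genes turned from -435.7 to 523.9. Loosening the adjusted p to 0.05 gave 996 genes higher than each subset, and without a fold limit 2908 genes were lower than the mean and 787 lower than each. With no filter on low counts 5362 genes lay above all 6 libraries, and the median log2 fold change of all genes tested was 0.226 in place of -0.00898. With at least 3 counts in both libraries 72 genes were seen only in the subset. The cause of these shifts was not tested beyond the change in threshold itself. DESeq2 called 2139 higher and 1568 lower than the mean, and 499 and 391 against each subset. Thinning to equal depth, chosen after seeing the data, gave 1849 and 1487, and 505 and 366.

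With 1 library left out at a time, calls higher than the mean ranged from 1526 to 2719, lower from 1228 to 1890, higher than each subset from 282 to 707 and lower than each from 271 to 545. Genes above all others ranged from 3606 to 4270 and below from 2425 to 3060, the difference in breadth from 2062.8 to 2336.8 and in effective number from -490.8 to -391.6. The low counts came without a library of the subset or, for genes higher than each, of Tspan8pos MHCIIhi, whose omission left 42.3% (replicate 1) and 47.2% (replicate 2) of calls against each subset higher, in place of 56.8%. These fits hold fewer samples. Unlike the calls, the counts of genes above or below all others can only stay or rise when a library is left out, so their ranges are no check. The log2 fold change of Mup1, 4.99 and not called, ranged from -2.05 (without Tspan8neg MHCIIhi replicate 2) to 7.06. Of 2254 values of 144 named genes under 16 settings, 2181 kept direction and side of the threshold, 52 lost and 20 gained the call. Most of these genes were chosen for a wide gap or a large fold change in the same libraries. Their stability was thus partly fixed by the choice and does not stand for all genes. The looser adjusted p and the dropped fold limit could not remove a call.

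Replicate numbers are shared between subsets. After subtraction of the subset means, libraries of equal number correlated at 0.00402 to 0.0924, and the numbers were not taken to pair samples. The thymocyte genes Dntt, Rag1 and Cd8a were, however, higher in replicate 2 than in replicate 1 in every subset. Whether libraries of equal number shared a preparation was not tested. A replicate block gave 2415 higher and 1817 lower than the mean and 622 and 499 against each subset. Depth limits the test of low genes, and 2 libraries a subset limit every estimate of spread.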

Other observations

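Gene families were counted by symbol, after their values were seen, and some hold genes already described. Among all genes tested 13.9% were higher and 10.3% lower, and low genes pass the count filter mainly through the subset in which they are high, so these counts describe the genes that passed. Of the 14 myosin heavy chain genes, all of which passed the count filter, 10 were higher in Tspan8neg MHCIIhi than the mean of the other subsets by edgeR and 1 was lower, with a median log2 fold change of 3.09, and 6 were higher than each subset. Of 25 glutamate receptor genes 13 passed, and 9 of them were higher and none lower, with a median of 2.71. Of 36 Hox genes 15 passed, and 7 were higher and none lower. Of 371 solute carrier genes 312 passed, with 74 higher, 49 lower and a median of 0.03. Keratin genes divided almost evenly, with 17 higher and 16 lower of 44. Of 31 bitter taste receptor genes 12 passed, of which 8 were lower and none higher. Of 48 clustered protocadherin genes 26 passed, with 1 lower, none higher and a median of -1.05.

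Between the 2 libraries of the subset the largest differences were in the mitochondrial gene mt-Co3 (590 and 0 normalized counts) and in Pde2a (174 and 1.81). Pde2a was at 192 to 971 in the 6 other libraries, so replicate 2 alone was near 0, and the gene was not called. The thymocyte genes Dntt (26.4 and 88.5), Rag1 (37.2 and 107) and Cd8a (39.1 and 101.7) were higher in replicate 2. The same held in the other subsets. Dntt was at 361 and 1075 in Tspan8neg MHCIIlo, 22.4 and 64.2 in Tspan8pos MHCIIhi and 46.8 and 99.8 in Tspan8pos MHCIIlo. Rag1 was at 268 and 797, 57.3 and 79.8, and 64.1 and 183 in the same order, and Cd8a at 111 and 377, 46.5 and 64.2, and 46.8 and 115. The part of thymocytes in these values was not tested.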
